A study of Mus musculus with 6 samples.

Results

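FXR binding at 7 lipoprotein receptor and remodelling genes was measured by ChIP-seq in male mouse liver with and without hepatocyte *Bcl6*. The genes were *Scarb1*, *Sdc1*, *Vldlr*, *Lrp1*, *Pltp*, *Lipc* and *Lcat*, and their peaks were those that the deposited annotation assigned to one of these gene names. These peaks numbered 39 of 20040 in the control list and 35 of 12495 in the knockout list. They fell at 6 of the 7 genes, since *Vldlr* had no peak in either list. Control mice were Bcl6fl/fl (WT), which carry floxed *Bcl6* alleles, and knockout mice were Bcl6LKO (LKO), which carry the same floxed alleles together with *Albumin-Cre*, a transgene that is active in hepatocytes. No treatment was given in the labels, and the age of the animals, and whether each library came from a separate mouse, are not given in the sources used here. Other liver cell types keep *Bcl6* in this model, and the tables measure neither *Bcl6* expression nor that of any other gene. Deletion of the targeted gene could therefore not be checked here, nor could the tissue be checked by marker genes.

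FXR is a nuclear receptor that binds bile acids and, with its partner RXR, activates genes of bile acid and lipid handling. BCL6 is a transcriptional repressor. The liver takes up cholesterol from high-density lipoprotein (HDL) through SR-BI, the product of *Scarb1*, and takes up remnants of triglyceride-rich lipoproteins through LRP1 and through heparan sulfate chains on syndecan-1, the product of *Sdc1*. VLDLR is a related receptor that is active mainly outside the liver. Hepatic lipase (*Lipc*), the phospholipid transfer protein (*Pltp*) and the cholesterol-esterifying enzyme LCAT (*Lcat*) reshape lipoproteins in the blood. *Scarb1*, *Sdc1* and *Pltp* are known FXR targets. The comparison of the genotypes asks where FXR binds when hepatocytes lack BCL6.

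Each genotype had 2 ChIP libraries and 1 input library, 6 samples in all. The ChIP libraries held between 2883717 tags (WT replicate 2) and 22637613 tags (LKO replicate 2), and WT replicate 1 supplied 86.8% of the pooled WT ChIP tags. At the pooled signal of the WT member peaks, WT replicate 2 would hold between 4.61 and 85.0 tags, with a median of 10.5. Of the ChIP libraries its values thus carry the most counting error. The inputs held 6964271 (WT) and 6935001 (LKO) tags over the whole genome. An input value at a single peak may therefore rest on few tags and is given as a description only. The authors called peaks on pooled libraries and then kept those in which the ChIP libraries exceeded input, so each genotype has 1 list and no list per replicate.

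The strongest WT peak of each gene is shown first, as the site of highest WT signal at that gene. All sequences are the plus strand of GRCm38.p6, which has the coordinates of mm10, written 5′ to 3′. Capitals mark exact copies of the hexamer AGGTCA on either strand, the sequence recognised by many nuclear receptors, and inverted repeats of it with a 1-base spacer (IR1, the classical FXR element) with at most 2 mismatches in 12 scored bases.
Scarb1, intron 1, chr5:125313409-125313619: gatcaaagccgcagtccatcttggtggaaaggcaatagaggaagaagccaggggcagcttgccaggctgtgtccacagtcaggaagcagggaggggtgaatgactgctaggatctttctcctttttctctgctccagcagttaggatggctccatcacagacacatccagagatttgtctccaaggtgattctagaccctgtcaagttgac
Sdc1, intron 1, chr12:8779880-8780090: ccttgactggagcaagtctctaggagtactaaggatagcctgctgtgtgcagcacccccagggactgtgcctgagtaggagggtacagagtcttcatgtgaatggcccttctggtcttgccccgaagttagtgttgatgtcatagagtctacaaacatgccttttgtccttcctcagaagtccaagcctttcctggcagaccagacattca
Lrp1, upstream, chr10:127622132-127622342: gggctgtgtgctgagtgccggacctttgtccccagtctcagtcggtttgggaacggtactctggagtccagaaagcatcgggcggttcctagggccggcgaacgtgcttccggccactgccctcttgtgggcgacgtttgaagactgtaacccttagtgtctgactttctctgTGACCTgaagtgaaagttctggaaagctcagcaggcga
Lipc, upstream, chr9:70940183-70940393: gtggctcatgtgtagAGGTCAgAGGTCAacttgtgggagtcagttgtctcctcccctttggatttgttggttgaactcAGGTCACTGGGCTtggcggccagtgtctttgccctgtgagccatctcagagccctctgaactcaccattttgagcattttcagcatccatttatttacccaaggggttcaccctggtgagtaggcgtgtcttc
Lcat, inside the gene, chr8:105942592-105942802: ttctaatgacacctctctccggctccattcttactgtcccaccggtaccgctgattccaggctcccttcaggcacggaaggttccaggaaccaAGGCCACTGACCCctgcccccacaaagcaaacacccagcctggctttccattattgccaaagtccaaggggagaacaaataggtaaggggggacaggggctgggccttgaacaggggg
Pltp, promoter, chr2:164857916-164858126: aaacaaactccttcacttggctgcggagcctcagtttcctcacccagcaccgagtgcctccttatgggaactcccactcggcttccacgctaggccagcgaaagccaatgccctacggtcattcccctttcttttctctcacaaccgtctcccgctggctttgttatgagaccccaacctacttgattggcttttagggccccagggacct
The *Scarb1* and *Sdc1* peaks held no capitals, and their best IR1 match had 4 mismatches. The *Lipc* peak held 3 copies of the hexamer, of which a pair in direct repeat with 1 base between them stood near its left end, with an IR1 match farther in, and the *Lcat* peak held an IR1 match near its centre.

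A pair of further *Lipc* peaks is shown because they had the largest LKO minus WT differences among the members. The exon 6 peak lies in coding sequence and held 1 hexamer, and the intronic peak held none.
Lipc, exon 6, chr9:70812703-70812913: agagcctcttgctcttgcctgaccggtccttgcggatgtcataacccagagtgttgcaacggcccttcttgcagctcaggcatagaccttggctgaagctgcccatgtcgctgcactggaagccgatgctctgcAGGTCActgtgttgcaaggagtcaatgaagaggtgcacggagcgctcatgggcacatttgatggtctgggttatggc
Lipc, intron, chr9:70893605-70893815: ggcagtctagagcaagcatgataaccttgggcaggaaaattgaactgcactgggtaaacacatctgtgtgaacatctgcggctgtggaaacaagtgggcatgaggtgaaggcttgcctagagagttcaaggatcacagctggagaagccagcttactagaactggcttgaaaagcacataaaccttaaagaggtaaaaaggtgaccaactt

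FXR peaks were most numerous at *Scarb1*, with 13 WT and 10 LKO peaks. Of the 9025 genes with a WT peak, 40 (0.443%) had 13 or more, and of the 6877 genes with an LKO peak, 20 (0.291%) had 10 or more. *Sdc1* followed with 10 WT and 9 LKO peaks, then *Lrp1* with 6 and 7, *Lipc* with 5 and 7, *Pltp* with 3 and 1, and *Lcat* with 2 and 1. The median gene with a peak had 1. The members' peaks were strong for their lists. Ranked by the mean log2 ChIP value within a list, the median member peak stood at percentile 71.2 in WT and 71.9 in LKO, and 11 WT and 8 LKO member peaks were in the top 10% of their list.

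Most member peaks were present in both genotypes. Peaks that overlapped by at least 1 bp formed 28 shared pairs, which left 11 peaks in the WT list only and 7 in the LKO list only. The shared share was 71.8% of the WT member peaks (95% Wilson interval 56.2 to 83.5, counting error only) beside 49.5% of all WT peaks, and 80.0% of the LKO member peaks (64.1 to 90.0) beside 79.4% of all LKO peaks. Sharing went with strength. Among WT peaks above the median strength, 24 of 30 member peaks were shared (80.0%) beside 75.5% of all, and among the weaker peaks 4 of 9 were shared beside 23.5% of all. In the LKO list, 21 of 22 stronger member peaks were shared beside 92.3% of all, and 7 of 13 weaker member peaks beside 66.4%. All 11 WT and all 8 LKO member peaks in the top 10% of their lists were shared, beside 95.3% and 97.6% of all such peaks. No member's strongest peak was in 1 list only.

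**Figure D1:**
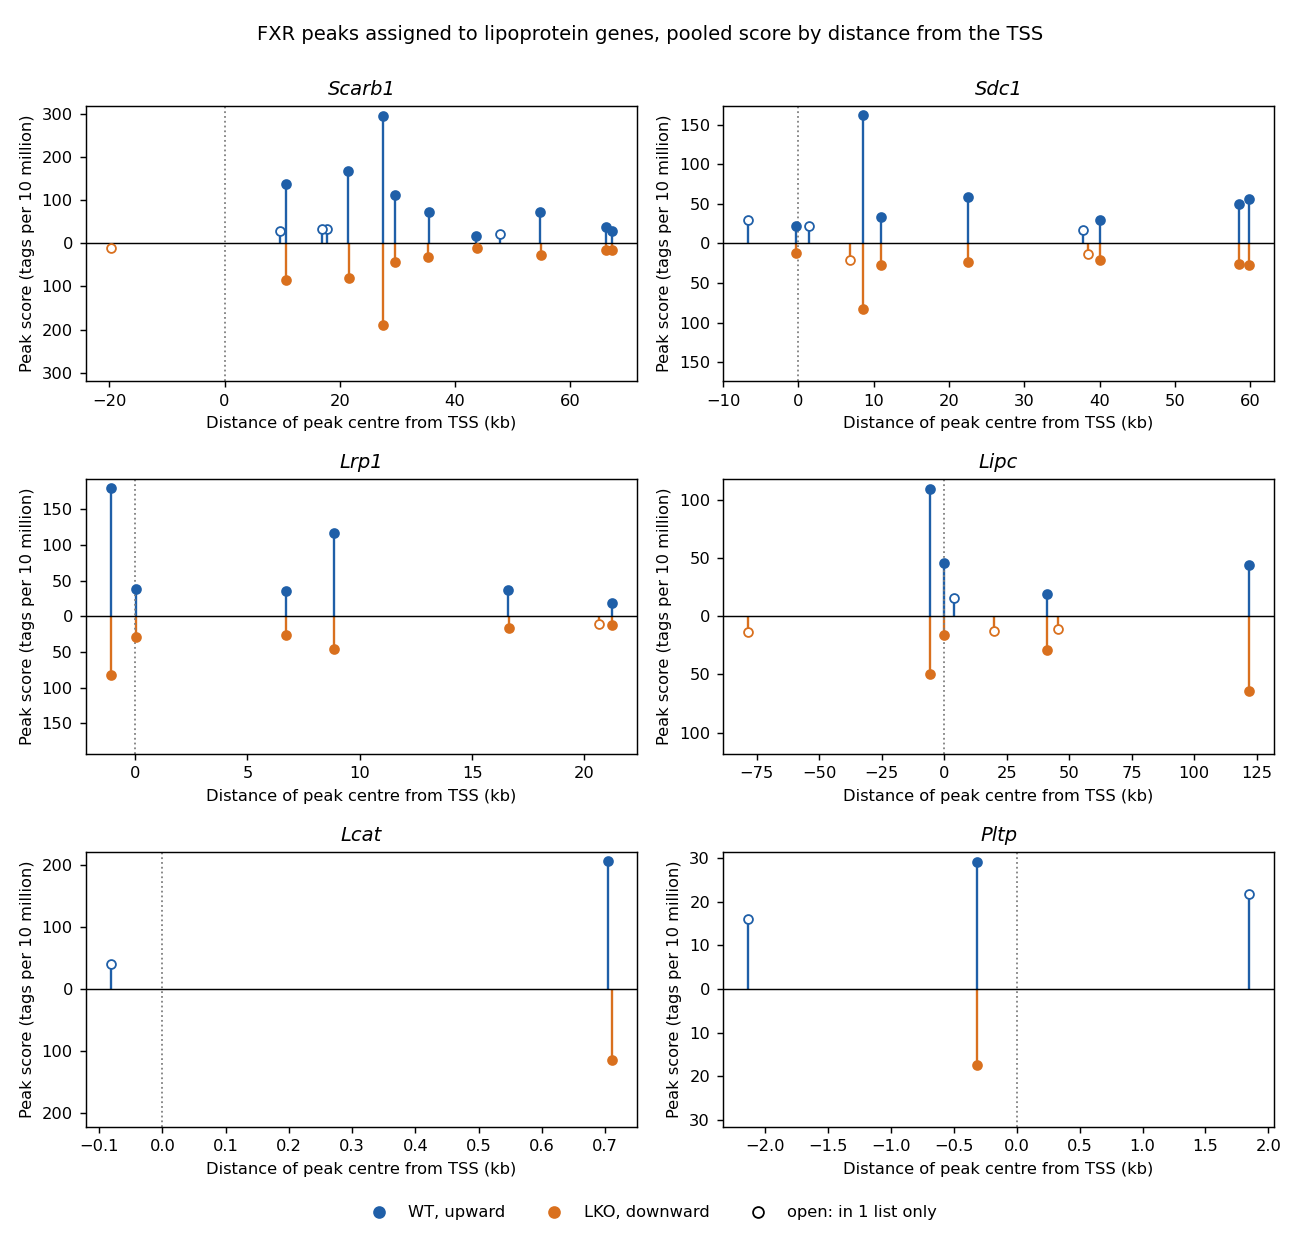
Pooled score of every member peak (tags per 10000000 pooled ChIP tags, vertical axis) by the distance of its centre from the transcription start site in kb (TSS, horizontal axis, negative upstream), with WT upward and LKO downward and open circles for peaks in 1 list only. The score axes differ between genes, and the tallest peaks of all 6 genes have a partner in the other genotype, with open circles confined to scores of 41.1 or less.

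By annotation, the 39 WT member peaks were 22 intronic, 9 intergenic, 5 at a promoter, 2 at a transcription termination site (TTS) and 1 exonic. The 35 LKO member peaks were 19, 9, 4, 2 and 1 in the same order. Introns held 56.4% of the WT member peaks beside 46.5% of all WT peaks, and promoters held 12.8% beside 11.4%. *Scarb1* had no promoter peak in either list. Its 2 downstream-most shared peaks lay beyond the 3′ end of the gene.

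The library values were taken as normalized by the authors separately for each genotype. Levels at shared peaks are therefore the log2 tag value minus the median of the same library over all 9918 shared peaks. A level of 0 is thus the median shared peak. No test between genotypes was run on these levels. With 2 libraries against 2, the smallest exact two-sided permutation p is 0.333. A shared peak is called higher or lower in LKO where both LKO libraries lay above or below both WT libraries. By that rule 7 of the 28 member pairs were higher, beside 29.8% of all shared peaks, 5 were lower, beside 25.2%, and 16 overlapped. The median LKO minus WT difference was 0.050 over the member pairs and 0.026 over all shared peaks, and the median pooled SD of the libraries was 0.20 for the members and 0.25 for all. The members as a group thus sat near the middle of all shared peaks. The split depended on the reference. With each library set relative to all peaks of its own table, 4 member pairs were higher and 16 lower, beside 9.43% and 58.3% of all shared peaks. That reference lowers the difference of every shared peak by the same amount, and moved the median of all from 0.026 to -0.45. Without the shallow WT replicate 2, 13 member pairs were higher and 7 lower, beside 41.1% and 35.3%. A pooled SD rests on 2 libraries per genotype and on log2 values taken as regularized, which draws low ones together. It can therefore fall below counting error at a single peak.

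**Figure D2:**
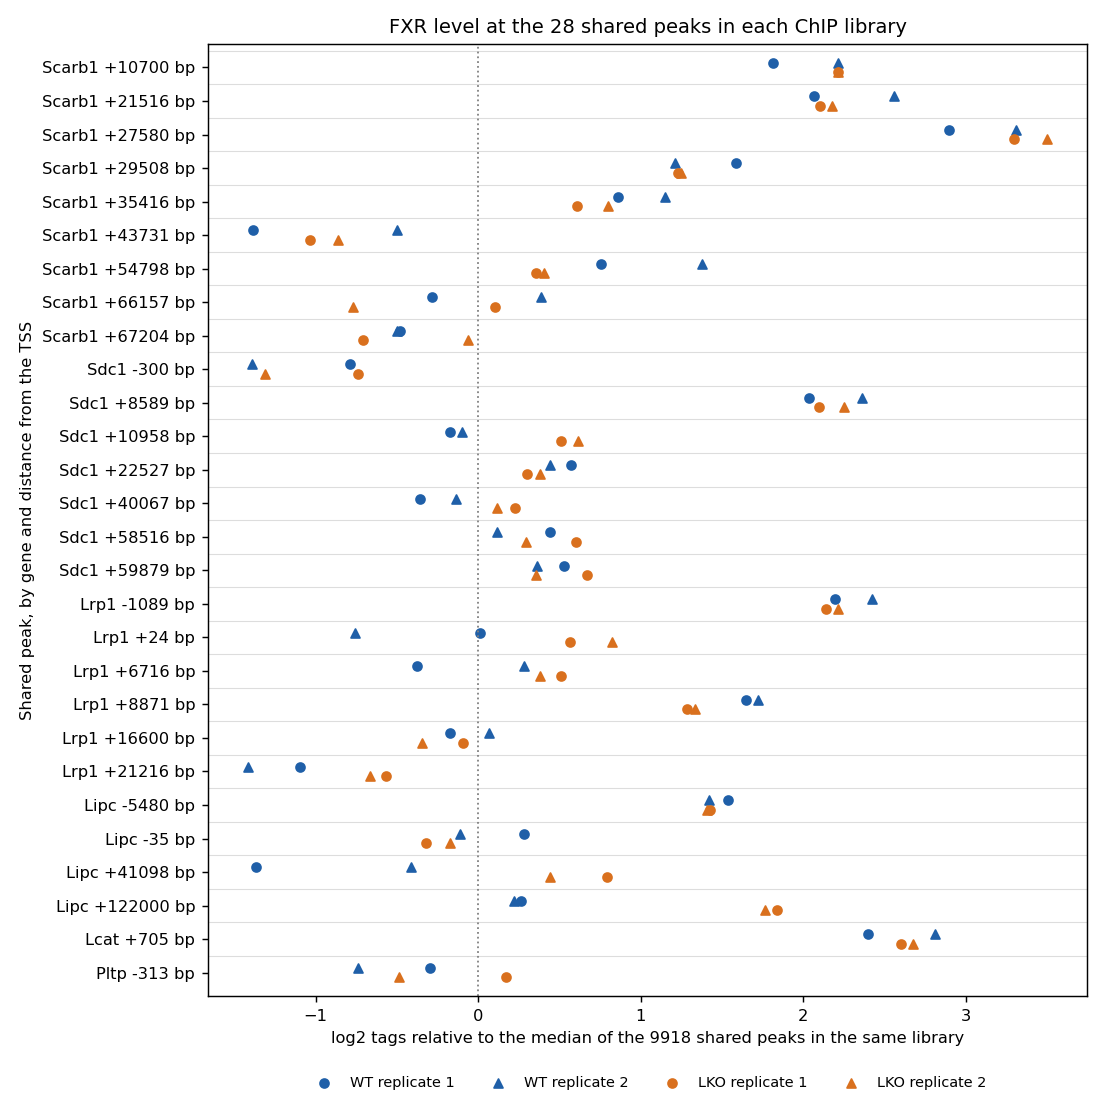
Level of each of the 28 shared peaks in the 4 ChIP libraries (horizontal axis, log2 tags relative to the median shared peak of the same library, marked by the dotted line), ordered by gene and distance from the TSS. Most rows have interleaved WT and LKO points, and the clearest separation is at the Lipc peak 122000 bp downstream of the TSS, where both LKO points lie above 1.7 and both WT points below 0.3.

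**Figure D3:**
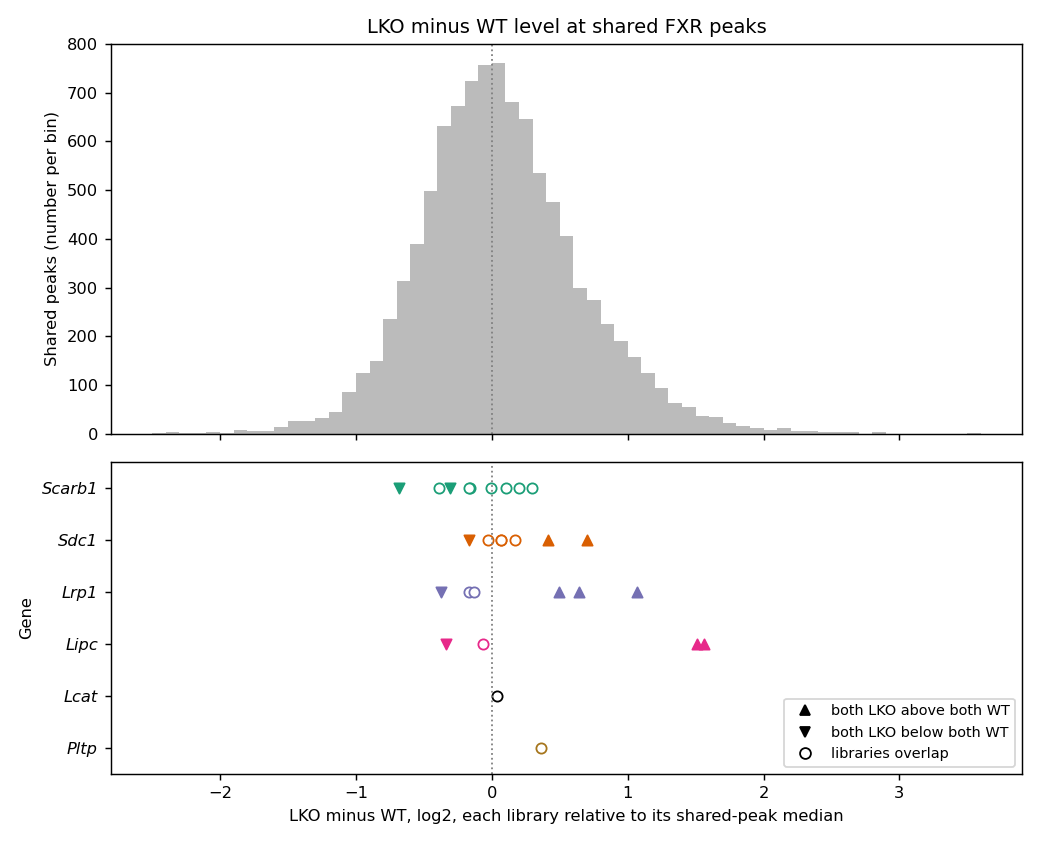
LKO minus WT level (horizontal axis, log2) of all 9918 shared peaks as a histogram with bins of 0.1 (top) and of the 28 member peaks by gene (bottom), with filled triangles for peaks whose genotypes do not overlap. Members lie within the bulk of all shared peaks, apart from 2 Lipc peaks above 1.5.

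*Scarb1* (chr5:125277087-125341094, minus strand) encodes the HDL receptor SR-BI. Of its 13 WT peaks 11 lay inside the gene, 8 of them in intron 1. Its strongest peak, 27580 bp downstream of the TSS in an MTEb long terminal repeat, ranked 72nd of all WT peaks and 40th of all LKO peaks. Its pooled score was 294.9 in WT and 189.6 in LKO. The levels there were 2.90 and 3.31 in WT replicates 1 and 2, and 3.30 and 3.50 in LKO replicates 1 and 2. LKO replicate 1 lay just below WT replicate 2, so the groups overlapped, with means of 3.10 ± 0.29 and 3.40 ± 0.14 (SD, n = 2 libraries each). The difference of 0.30 was close to the pooled SD of 0.23.

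The other 8 shared *Scarb1* peaks gave differences between -0.68 and 0.20, and none was higher in LKO. A pair was lower. At the intronic peak 54798 bp downstream of the TSS the levels were 0.75 and 1.38 in WT and 0.35 and 0.41 in LKO, a difference of -0.68 (pooled SD 0.31). The WT libraries themselves lay far apart there, and the WT input value of 1.83 was near the 95th percentile of WT inputs (1.85), against 0.024 in LKO, whose 95th percentile was 2.49. The part of the input in this difference was not tested. At the peak 35416 bp downstream the difference was -0.30 (pooled SD 0.17).

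The 4 *Scarb1* peaks in the WT list only were weak to moderate, with scores of 21.5 to 33.8. The strongest, chr5:125323213-125323423 in intron 1, had WT levels of -0.14 and -0.083, near the median shared peak, and a WT input value of 1.80. Its nearest LKO peak centre was 3756 bp away. The single *Scarb1* peak in the LKO list only, chr5:125360761-125360965, lay 19769 bp upstream of the TSS with a score of 10.9 and levels of -0.73 and -0.92.

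*Sdc1* (chr12:8771396-8793716, plus strand) encodes syndecan-1, whose heparan sulfate chains capture remnant lipoproteins. Its strongest peak, in intron 1 and 8589 bp downstream of the TSS, scored 161.6 in WT and 83.1 in LKO. The levels were 2.04 and 2.36 in WT and 2.10 and 2.25 in LKO. The LKO values fell between the WT values, and the difference of -0.027 was far under the pooled SD of 0.18. The promoter peak at chr12:8770991-8771201 was among the weaker shared peaks. It had levels of -0.79 and -1.39 in WT and -0.74 and -1.31 in LKO, and here too the groups overlapped.

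Of the 7 shared *Sdc1* peaks, 2 were higher and 1 was lower in LKO. The peak 10958 bp downstream of the TSS, which held an IR1 match, had levels of -0.18 and -0.10 in WT and 0.51 and 0.62 in LKO. Replicates were close to each other in both genotypes, and the difference of 0.70 compared with a pooled SD of 0.065. At the median WT member peak, WT replicate 2 would hold 10.5 tags, so the closeness here may understate counting error. The WT input value was 1.07 and the LKO input value 0.052. The peak 40067 bp downstream was higher by 0.42, with an input value of -0.36 in WT and 2.45 in LKO, and its difference turned to -0.060 relative to all peaks of each table. The pooled scores of these 2 peaks were lower in LKO, with LKO to WT ratios of 0.802 and 0.694. The TTS peak differed by -0.17 and was lower in LKO. The 4 others ranged from -0.027 to 0.17.

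*Sdc1* also had peaks in 1 list only. The strongest of the 3 in the WT list, chr12:8764576-8764786 and 6715 bp upstream, scored 29.7 with levels of -0.52 and 0.050. The stronger of the 2 in the LKO list, chr12:8778089-8778293 in intron 1, scored 20.7 with levels of 0.023 and 0.22, and its IR1 match is given further on. It lay 1794 bp from the nearest WT peak centre, the strongest *Sdc1* peak.

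*Lrp1* (chr10:127538157-127621148, minus strand) encodes the endocytic receptor LRP1. All 6 of its WT peaks were shared. The strongest lay 1089 bp upstream of the TSS, scored 179.9 in WT and 82.2 in LKO, and had levels of 2.20 and 2.42 in WT and 2.14 and 2.21 in LKO. LKO replicate 2 lay just above WT replicate 1, so the groups overlapped. Input was high at this peak in LKO (3.02, above the 95th percentile of 2.49) and low in WT (0.017), and its part in the values was not tested.

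The *Lrp1* promoter peak, chr10:127621019-127621229 and centred 24 bp downstream of the TSS, was higher in LKO. Its levels were 0.012 and -0.76 in WT and 0.57 and 0.83 in LKO. The WT libraries were far apart, with WT replicate 2 the lowest, and the difference of 1.07 compared with a pooled SD of 0.41. Its pooled scores were 38.3 in WT and 29.6 in LKO, a ratio of 0.773 beside a median of 0.507 over all shared peaks. Input moved the same way, from -0.38 in WT to 1.69 in LKO, and its part was not tested. Each of these input values came from 1 library and may rest on few tags. Peaks 6716 and 21216 bp downstream were also higher in LKO, by 0.49 and 0.64. These differences were 0.015 and 0.17 relative to all peaks of each table, and the LKO to WT score ratios were 0.749 and 0.631. The WT input at the first of them was 2.28, above the WT 95th percentile. The intron 2 peak 8871 bp downstream was lower, with 1.64 and 1.72 in WT, 1.28 and 1.33 in LKO and a difference of -0.38 (pooled SD 0.046). The closeness of its replicates may understate counting error. Its input value was 1.17 in WT and 0.17 in LKO, and the part of input in this difference was not tested.

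Part of the FXR binding inside *Lrp1* was assigned to another gene name. The *Lrp1* body held 8 WT and 10 LKO peaks, of which 3 and 4 were assigned to *Nxph4*, a gene with a nearer TSS, and so are no members. The 3 WT peaks were shared, scored 74.9, 111.4 and 167.5 in WT and 41.4, 39.4 and 99.0 in LKO, and lay in exons and an intron of *Lrp1*. The only *Lrp1* peak in the LKO list only, chr10:127600408-127600612, lay in an intron with a score of 10.9 and levels of -1.02 and -0.42.

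*Vldlr* (chr19:27216480-27254231, plus strand) had no peak assigned to it and none inside its 37752 bp body in either list. The nearest WT peak centre was 111219 bp from its TSS, at chr19:27327594-27327804, and the nearest LKO peak centre was 100569 bp away, at chr19:27316947-27317151. Both were assigned to *Kcnv2*. They scored 97.2 in WT and 14.3 in LKO and did not overlap each other, although the WT peak overlapped another LKO peak that scored 32.3. The weakest peaks kept scored 7.30 in WT and 8.88 in LKO, so weaker binding at *Vldlr* would not be listed.

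*Lipc* (chr9:70798128-70952221, minus strand) encodes hepatic lipase, which hydrolyses lipids of HDL and remnants. Of its 4 shared peaks, 2 were higher in LKO, 1 was lower and 1 overlapped. Its strongest WT peak, 5480 bp upstream of the TSS of the main transcript and in intron 1 of a longer one, lies in an RSINE1 repeat. It scored 109.6 in WT and 49.4 in LKO, where the exon 6 peak was the strongest *Lipc* peak with a score of 64.4. Its levels were 1.54 and 1.42 in WT and 1.42 and 1.41 in LKO, which overlapped narrowly at a difference of -0.064. The promoter peak, chr9:70934738-70934948, was lower in LKO. There WT had 0.28 and -0.11 and LKO -0.32 and -0.18, a difference of -0.34 with a pooled SD of 0.21.

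A pair of *Lipc* peaks stood out on the LKO side. They fell outside the rule for named peaks and were chosen after their values were seen. The exon 6 peak, 122000 bp downstream of the TSS, had levels of 0.27 and 0.22 in WT and 1.84 and 1.77 in LKO. Replicate values were close in both genotypes, which may understate counting error, and the difference of 1.56 compared with a pooled SD of 0.042. It ranked 144th of the 9918 shared peaks by difference, counted from the highest. The pooled score was 43.8 in WT, or 95.9 tags, and 64.4 in LKO, or 283 tags. Input ran the other way, at 2.29 in WT, above the 95th percentile of 1.85, and 0.25 in LKO.

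The intronic peak 41098 bp downstream had levels of -1.37 and -0.41 in WT and 0.79 and 0.44 in LKO. The WT libraries were far apart, though both lay below both LKO libraries, and the difference of 1.51 (pooled SD 0.51) ranked 164th. Its score was 18.7 in WT and 28.9 in LKO, and input was low in both (-0.47 and 0.060). *Lipc* also had 3 peaks in the LKO list only, more than any other member. The strongest, chr9:71030644-71030848, lay 78525 bp upstream in an MLT2B4 repeat, scored 13.9 and had levels of -0.40 and -0.25. The single WT-only peak, chr9:70930801-70931011, scored 16.0 with levels of -1.25 and -1.69.

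*Lcat* (chr8:105939551-105943402, minus strand) encodes the enzyme that esterifies HDL cholesterol. A strong peak lay 705 bp inside the gene, just past the annotated 3′ end of *Slc12a4*, the neighbouring gene on the same strand. It ranked 200th of all WT peaks and 213th of all LKO peaks and scored 205.4 and 113.8. The levels were 2.40 and 2.81 in WT and 2.60 and 2.68 in LKO. The LKO values fell between the WT values, and the difference was 0.035. Input was raised in both genotypes, at 1.89 in WT and 1.81 in LKO. The promoter peak, chr8:105943379-105943589 and centred 82 bp upstream of the TSS, was in the WT list only. It scored 41.1, the highest of the members' WT-only peaks, with levels of -0.002 and 0.40. The nearest LKO peak centre was 793 bp away, at the shared *Lcat* peak.

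*Pltp* (chr2:164839518-164857708, minus strand) encodes the phospholipid transfer protein. Its promoter peak, centred 313 bp upstream of the TSS, was its strongest and its only shared peak. It scored 29.2 in WT and 17.3 in LKO, with levels of -0.30 and -0.74 in WT and 0.17 and -0.49 in LKO. The libraries overlapped, and the difference of 0.36 was under the pooled SD of 0.40. Both WT-only peaks were weak. The stronger, chr2:164855755-164855965 in a B2 repeat of an intron, scored 21.9 with levels of -0.89 and -0.66, and the other scored 16.0.

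Pooled scores put fewer members on the LKO side than the levels did. Scores were lower in LKO at nearly all shared peaks, with a median LKO to WT ratio of 0.537 over the members and 0.507 over all. The LKO score was the higher of the pair at 2 of the 28 member pairs, beside 4.25% of all shared peaks. These were the exon 6 and intronic *Lipc* peaks, with ratios of 1.47 and 1.55. The other 5 pairs with higher LKO levels had lower LKO scores, with ratios of 0.631 to 0.802. The smallest member ratio, 0.341, was that of the *Lipc* promoter peak, whose score was 46.1 in WT and 15.7 in LKO. Pooled scores have no replicate check, and the WT scores rest mainly on WT replicate 1.

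**Figure D4:**
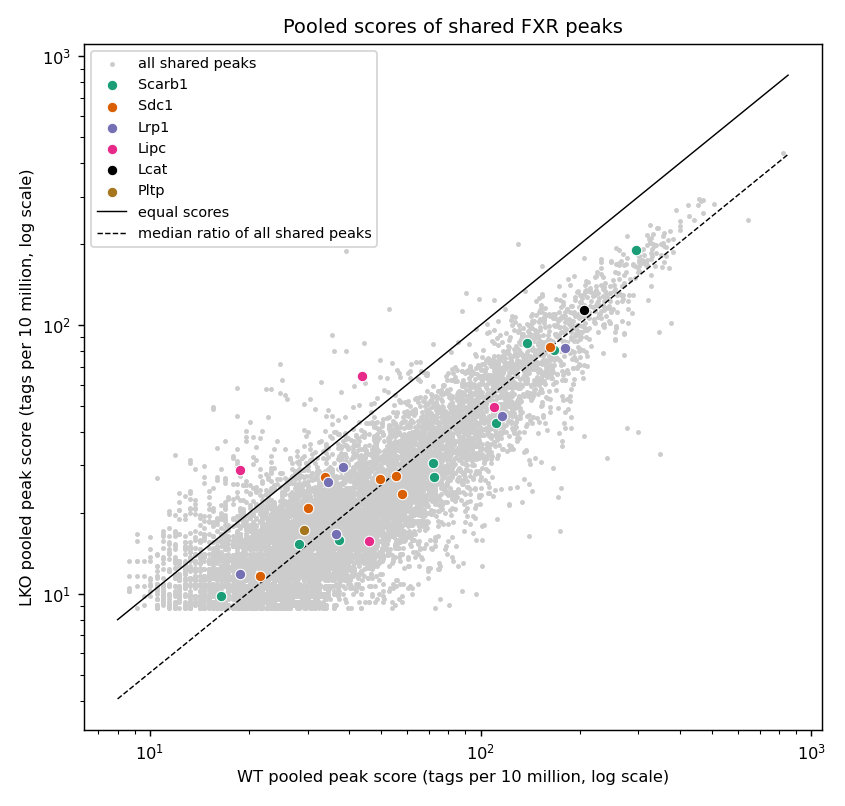
Pooled score in WT (horizontal axis) and LKO (vertical axis) of all 9918 shared peaks in grey and of the 28 member peaks by gene, in tags per 10000000 on log scales. The solid line marks equal scores and the dashed line the median ratio of 0.507, and of the members the 2 Lipc peaks lie above the solid line.

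The motif search covered the 100 bp on either side of each peak centre. IR1, the hexamer AGGTCA followed by 1 base and its reverse complement TGACCT, was found with at most 2 mismatches in 6 of 39 WT member peaks (15.4%, Wilson interval 7.25 to 29.7) beside 11.8% of all WT peaks. It was found in 8 of 35 LKO member peaks (22.9%, 12.1 to 39.0) beside 16.2% of all LKO peaks. No member peak in either list matched with at most 1 mismatch, which allows shares of up to 8.97% in WT and 9.89% in LKO (upper Wilson bounds), beside 2.46% of all WT and 3.55% of all LKO peaks. Windows 2 kb away from the member peaks held 0 matches in 78 WT and 70 LKO windows, which allows up to 3.85% and 4.29% at 3 counts, beside 0.896% and 0.976% of such windows for all peaks. The 8 member sites are shown with 8 flanking bases on each side, with the IR1 match in capitals, to let its letters be compared between genes.
Scarb1, 10700 bp downstream of the TSS: caccacagAGGTCCTTGCCCTcctgagcc
Sdc1, 10958 bp downstream: gtactcatGGGACATTGACCTgtagtggg
Sdc1, 6795 bp downstream, LKO list only: aggttttcAGATCAGTGCCCTtggcattc
Lrp1, 16600 bp downstream: ggatccacAGTTCATTGCCCTcagcctca
Lrp1, 8871 bp downstream: tctggtacAGGGCAGTGGCCTttggcctg
Lipc, 5480 bp upstream: ttgaactcAGGTCACTGGGCTtggcggcc
Lipc, 78525 bp upstream, LKO list only: tttaatgaAGATCATTGACCCagggtggg
Lcat, 705 bp downstream: aggaaccaAGGCCACTGACCCctgccccc
Of the 6 sites in shared peaks, 1 lay in a peak that was higher in LKO (*Sdc1*) and 1 in a peak that was lower (*Lrp1*, intron 2), and the other 4 peaks overlapped between genotypes. *Pltp* had no match.

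The other letter patterns were about as frequent in the members as in all peaks. A direct repeat of the hexamer with 1 base between its copies (DR1), also with at most 2 mismatches and able to share a hexamer with IR1, was found in 4 WT and 6 LKO member peaks (10.3% and 17.1%, beside 12.8% and 11.9% of all peaks). The exact hexamer on either strand was found in 14 WT and 11 LKO member peaks (35.9% and 31.4%, beside 40.3% and 41.3%). The core TTCNNNGAA, which BCL6 and STAT proteins recognise, was found in 2 WT and 3 LKO member peaks (5.13% and 8.57%, beside 6.56% and 6.39%). Annotated repeats were named for 8 WT and 6 LKO member peaks (20.5% and 17.1%, beside 17.3% and 14.9%), among them the strongest peaks of *Scarb1* and *Lipc*.

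A list of 29 other genes of lipoprotein uptake, lipolysis and remodelling gave a wider view. They had 89 WT and 60 LKO peaks at 21 and 19 genes. Of these peaks 51 were shared, or 57.3% of WT (46.9 to 67.1) and 85.0% of LKO (73.9 to 91.9), beside 49.5% and 79.4% of all peaks. The most WT peaks were at *Ext1* (11, heparan sulfate synthesis), *Abca1* (9, cholesterol efflux to HDL) and *Ndst1* (9, heparan sulfate sulfation), of which 6, 4 and 5 were shared. Genes with no peak in either list included *Sorl1*, *Gpihbp1*, *Lrpap1*, *Hs2st1* and *Xylt2*. Of the 51 shared pairs, 17 were higher in LKO (33.3%, beside 29.8% of all shared peaks), 12 were lower (23.5%, beside 25.2%) and 22 overlapped. The median difference was 0.078, so this wider list too lay near all shared peaks.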

How the data were processed

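FXR ChIP-seq was performed on livers of Bcl6fl/fl and Bcl6LKO male mice. A genotype had 2 ChIP and 1 input library, and all 6 samples were grouped by their labels. Per the methods of the study, chromatin was crosslinked with disuccinimidyl glutarate and formaldehyde, FXR was precipitated with antibody E4B8P, and 100 bp single-end reads were aligned uniquely to mm10 with Bowtie. The submitters' processing notes name Bowtie 1.2 and HOMER 4.10. Per the file headers, HOMER peaks were called by the authors once per genotype, pooling its ChIP libraries and using its input as background, and DESeq2 then set the limits for keeping a peak, an adjusted p-value of 0.05 and a log2 fold change of 1. The deposited library columns hold log2 tag values, which were taken as regularized log2 from their range, fitted within each table of 3 libraries, which draws low values of that table together. The deposited score column holds a signal in pooled ChIP tags per 10000000. The deposited fold change, p-value and adjusted p-value columns compare ChIP with input and were not used.

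The ChIP libraries held 19022618 (WT replicate 1), 2883717 (WT replicate 2), 21287263 (LKO replicate 1) and 22637613 (LKO replicate 2) tags, and the inputs 6964271 (WT) and 6935001 (LKO). Intervals and upper limits cover counting error only.

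Peaks were paired where they overlapped by at least 1 bp. A limma test of shared peaks had been planned only for a common scale. The deposited values were taken as normalized separately per genotype, so no test was run, and levels set across genotypes are descriptions. Input values were compared with the 95th percentile of their own table. Sequence and gene models came from GRCm38.p6, whose RefSeq transcripts gave the deposited distance to the TSS, to 2 bp, for all 39 WT and 35 LKO member peaks. IR1 and DR1 were scored over 12 bases on both strands. Full values were given for the strongest WT peak of each gene, each promoter peak and the strongest peak of each gene in 1 list only. Some peaks outside that rule were added after their values were seen. They were *Scarb1* 54798 bp, *Sdc1* 10958 bp, *Lrp1* 8871 bp, and the exon 6 and intronic *Lipc* peaks. Single values of some other lipoprotein genes are not reported here. The members and lists were chosen with earlier results of these data known. Only the overlap and motif searches were tested on simulated data. All steps ran in Python 3.11.15 with matplotlib 3.10.9, scipy 1.17.1, pandas 2.3.3 and numpy 2.4.6. Alternatives covered the overlap rule, list length, peak strength, centring, pooled scores, each replicate left out, input and motif settings.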

Additional observations from a re-analysis of the deposited data

How the results depend on the processing

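Of 306 recomputed values, 54 were counts, shares or medians, of which 37 stayed and 17 moved. A count stayed if within 1.5 times the value reported, a share if inside its 95% Wilson interval, and a median if within the spread. The other 252 were differences at a single shared peak, of which 167 stayed, 79 moved and 6 were reversed, at 5 peaks. Such a difference stayed if it changed by no more than the pooled SD of that peak. Leaving out a replicate cannot change it by more than that SD. All single-peak values with a replicate left out therefore stayed by construction, and they say nothing about robustness. Reversed means a changed sign at a peak called higher or lower. Sign changes at peaks that overlapped between genotypes were counted as stayed or moved. The strongest *Scarb1* peak, for example, went from 0.30 to -0.18 relative to all peaks of each table. Keeping only peaks of at least median strength left 22 LKO member peaks, and with both lists so limited 90.9% of them were shared. With lists of equal length, 74.6% of the WT peaks of the other lipoprotein genes were shared. The median LKO minus WT difference of the members was -0.43 relative to all peaks of each table (all shared peaks -0.45). It was -0.28 on the deposited scale (all -0.30). Both of these settings shift every shared peak by the same amount, so the members had to follow all shared peaks there. As a log2 ratio of pooled scores, which is not such a shift, the median was -0.90 (all -0.98). Relative to all peaks, 4 members were higher and 16 lower, beside 9.43% and 58.3% of all shared peaks. On the deposited scale 8 were lower, beside 37.3% of all, and relative to the mean of the shared peaks 8 were lower, beside 29.6%. Leaving out each replicate in turn gave medians of 0.011 to 0.087, 9 to 13 higher and 7 to 13 lower pairs. Without WT replicate 1 the pairs were 11 higher and 13 lower, beside 42.0% and 38.6% of all shared peaks. Without WT replicate 2 they were 13 and 7, beside 41.1% and 35.3%. Without LKO replicate 1 they were 9 and 9, beside 41.0% and 35.7%. Without LKO replicate 2 they were 11 and 7, beside 40.2% and 36.3%. A lone library cannot overlap as easily as 2. With at most 1 mismatch, 0 WT and 0 LKO member peaks held IR1. The *Sdc1* peak at 40067 bp changed sign to -0.060 relative to all peaks. Pooled scores were lower in LKO at most shared peaks. As log2 ratios of these scores, pairs called higher changed sign at *Lrp1* 21216 bp (-0.66), 6716 bp (-0.42) and 24 bp (-0.37). So did those at *Sdc1* 10958 bp (-0.32) and 40067 bp (-0.53). Among the 24 pairs whose input was at or under the 95th percentile in both tables, a setting added once the data had been seen, the median was 0.030 with 5 higher and 5 lower. No paired analysis was possible because these results come from no test, and pairing libraries by replicate number would leave each difference of means as it is. Neither limma nor the replicate block was fitted. Depth limits WT replicate 2 most.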
